A study of Mus musculus with 24 samples.

Results

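RNA from the cerebellum of Thumpd1 knockout (KO) mice was compared with that of wild-type (WT) mice, gene by gene. The comparison used the 8 cerebellum libraries of a series of 24, namely WT libraries 1 to 4 and KO libraries 5 to 8, and the other libraries came from liver and testes. Genes with a count-per-million (CPM) of at least 1 in at least 4 of these 8 libraries were kept, which left 16225 of 55450 genes. KO mice lacked functional Thumpd1 from conception on, from a line made with Cas9 and guides to exons 1 and 4 in C57BL/6N zygotes, and WT animals carried both intact copies. Males and females aged 6 to 12 weeks were used in the study, and controls were littermates of the same age. RNA was taken from whole tissue, and the age and sex behind each library are not given in the sources used here.

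Thumpd1 is a tRNA-binding adapter. With it, the acetyltransferase Nat10 can acetylate a cytidine of the tRNAs for serine and for leucine, which gives N4-acetylcytidine. When ribosomes stall or uncharged tRNA builds up, the kinase Gcn2 (gene Eif2ak4) can phosphorylate the initiation factor eIF2. Less bulk protein is then made, while the transcription factor Atf4 is translated better and turns on genes for amino acid synthesis, amino acid uptake and tRNA charging. This programme is called the integrated stress response (ISR). The cerebellum is built mostly of granule cells, small excitatory neurons, together with Purkinje cells, inhibitory interneurons, glia and the output neurons of the deep nuclei.

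WT libraries held between 18365028 and 24728845 counts and KO libraries between 16353797 and 19572030. Where a gene had no count, up to 3 counts remain possible from counting error alone. Libraries with neighbouring numbers resembled each other. The deviations of 11069 genes from their group mean correlated at 0.55 between WT libraries 1 and 2 and at 0.54 between 3 and 4. They correlated at 0.12 between KO libraries 5 and 6 and at -0.11 between 7 and 8. Such correlations lean below 0 by construction, since the deviations of a group sum to 0. All other pairs within a genotype lay between -0.82 and -0.25. Ttr, the thyroid hormone carrier made by the choroid plexus, was at 935 and 962 CPM in WT libraries 1 and 2, at 1.09 and 0.82 CPM in WT libraries 3 and 4, at 1.87 and 1.96 CPM in KO libraries 5 and 6, and at 317 and 312 CPM in KO libraries 7 and 8. The study describes the libraries of a group as biological replicates, and the labels do not tie a library to an animal. The p-values below treat the 8 libraries as separate samples and measure only the spread between them. Counts of the 2 libraries of each pair differed by more than sampling noise, so none was dropped. That comparison used counting error only and cannot tell 2 preparations from the same animal from 2 animals.

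Thumpd1 (ENSMUSG00000030942.8, mm10 chromosome 7, 119715093 to 119720798, minus strand) was nearly absent from the KO libraries. It stood at 21.8, 21.8, 22.1 and 24.0 CPM in the WT libraries, and 0 to 2 counts were left in each KO library. Set against 3 counts in a KO library, the lowest WT level was 118.8-fold higher. Those 3 counts are the limit for a library with 0 counts, and some KO libraries held 1 or 2. The fitted log2 change was -8.72 ± 0.30 (SE, limma adjusted p 5.25e-09). Its partner Nat10 stood at 33.9, 34.9, 36.9 and 34.1 CPM in WT and at 38.2, 37.4, 40.4 and 38.3 CPM in KO. The groups did not overlap, but the log2 change of 0.14 ± 0.05 missed the threshold (adjusted p 0.113). Among the 10 tested genes on either side of Thumpd1, log2 changes lay between -0.73 and 0.28. Of these 20 genes 1 was called, beside 6.44% of all genes tested. It was Ccp110 at -0.19 (adjusted p 0.0228, up to 0.0805 without WT replicate 1).

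In all, 1045 genes had an adjusted p under 0.05, which is 6.44% of those tested. Of these, 638 were higher in KO (3.93%) and 407 lower (2.51%). The changes were small, with a median absolute log2 change of 0.26 over the called genes, and only 69 called genes rose and 2 fell by 1 or more on the log2 scale. For 13.8% of all genes tested, the KO values lay entirely above or entirely below the WT values. The count leaned on single libraries: it dropped to 398 without WT replicate 1 and grew to 2321 without KO replicate 6. List counts leaned on them too, and 30 of 32 counts of 1 to 3 calls on the lists moved by more than 1.5 times when some single library was left out. Of 44 counts of 0, 12 rose above 0 in the same fits. When each neighbouring pair was summed into 1 sample, which leaves 2 against 2, 48 genes were called.

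**Figure D1:**
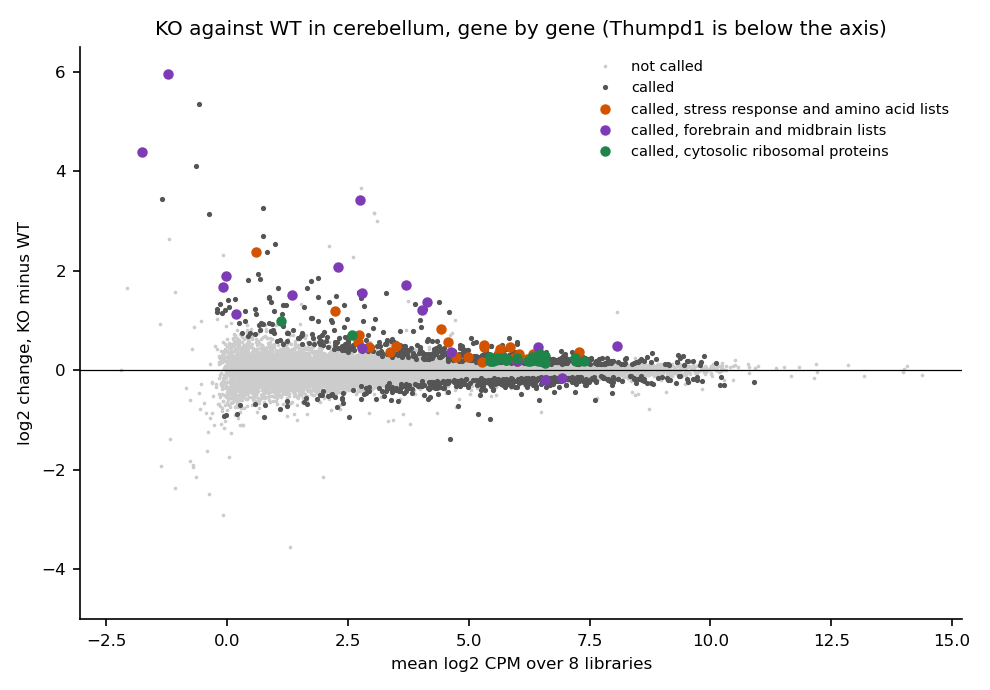
Each point is 1 of the genes tested, with mean log2 CPM over the 8 libraries on the x axis and the log2 change of KO minus WT on the y axis. Called genes of the stress response and amino acid lists (orange) lie above 0, up to Slc7a3 at 2.37. Called genes of the forebrain and midbrain lists (purple) spread widely, with 17 above 0, such as Nrgn at 3.42, and 2 below. The called ribosomal protein genes (green) lie between 0.16 and 0.99, with a median of 0.22. Thumpd1, at -8.72, lies below the axis.

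Many stress response and amino acid genes rose. Of 77 tested genes on 4 lists (ISR regulators, amino acid synthesis, amino acid transporters and cytosolic aminoacyl-tRNA synthetases), 27 were called higher and 0 lower. That is 35.1%, beside the 3.93% of all genes. Their median log2 change was 0.15, against -0.01 over all genes tested. With neighbouring pairs summed, 10 of the 27 were called, and 18 were called in every fit other than that one and the marker covariate described below. The lists were written with earlier results of these data known.

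Among the ISR regulators, 5 of 20 rose, with a list median of 0.14 (0.087 with a correction for transcript GC content). Atf4, the transcription factor at the centre of the response, stood at 79.5, 77.8, 72.1 and 74.3 CPM in WT and at 99.5, 94.2, 95.8 and 92.9 CPM in KO. Every KO library was above every WT library, and the log2 change was 0.33 ± 0.04 (adjusted p 0.00105). Atf5, a related factor that is also translated under stress, went from 15.5, 16.6, 16.4 and 14.7 CPM to 29.7, 28.4, 28.6 and 27.7 CPM. The log2 change of 0.84 ± 0.06 (adjusted p 9.97e-06) had the lowest p of the regulators, and the KO libraries lay well above the WT libraries. Atf5 shares exon positions with Il4i1 and Nup62 on the other strand, and the strand used in counting is not given in the sources used here.

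Chac1, an Atf4 target that degrades glutathione, was at 2.77, 2.75, 3.43 and 3.42 CPM in WT and at 6.67, 6.18, 7.66 and 7.95 CPM in KO. The log2 change was 1.19 ± 0.14 (adjusted p 0.000464), the largest of the list. Sesn2, a leucine sensor that restrains mTORC1, rose by 0.49 ± 0.09 on the log2 scale (adjusted p 0.00809), from between 8.36 and 10.3 CPM to between 12.0 and 14.3 CPM. Ddit3, which encodes the death-promoting factor Chop, went from 7.51, 6.47, 5.94 and 5.66 CPM to 10.3, 8.56, 8.33 and 8.95 CPM. Its log2 change was 0.46 (adjusted p 0.0222), but a second Ddit3 entry and Mars overlap it, and it was not called without WT replicate 3 or 4 or KO replicate 5 or 8 (adjusted p 0.053 to 0.0685). The kinase gene Eif2ak4 stood between 42.9 and 47.1 CPM in WT and between 43.0 and 48.2 CPM in KO, with a log2 change of 0.00 ± 0.05 (adjusted p 0.976).

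Of 19 genes of amino acid synthesis and its one-carbon branch, 8 rose, by 0.24 to 0.72 on the log2 scale. That count was 4 without WT replicate 1 or WT replicate 4, and 5 without WT replicate 3, KO replicate 5 or KO replicate 7. Asns, asparagine synthetase (ENSMUSG00000029752.12, chromosome 6, 7675169 to 7693254), stood at 34.7, 33.5, 33.1 and 32.1 CPM in WT and at 44.4, 49.0, 47.4 and 50.5 CPM in KO. The groups were far apart, with a log2 change of 0.50 ± 0.05 (adjusted p 0.000306). Mthfd2, the mitochondrial one-carbon enzyme, was at 5.2, 5.78, 4.96 and 4.49 CPM in WT and at 8.76, 9.36, 8.12 and 8.26 CPM in KO (log2 change 0.72, adjusted p 0.00135). Bcat1, the cytosolic branched-chain aminotransferase, and Aldh1l2, a mitochondrial folate enzyme, rose by 0.29 (adjusted p 0.00149) and 0.24 (adjusted p 0.0103). Genes on the other strand overlap both.

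Of 14 amino acid transporters, 5 rose, with a list median of 0.13 (0.077 with the GC correction). Slc1a4, which carries serine and other neutral amino acids, stood at 18.9, 19.9, 19.7 and 18.8 CPM in WT and at 30.4, 29.8, 30.3 and 26.1 CPM in KO (log2 change 0.57 ± 0.06, adjusted p 0.000372). Slc7a1, a carrier of arginine and lysine, went from 40.8, 45.3, 43.0 and 41.8 CPM to 59.3, 55.2, 57.8 and 57.7 CPM (log2 change 0.42, adjusted p 0.000375). Slc7a5, the transport subunit of the large neutral amino acid exchanger, went from 49.0, 52.5, 47.6 and 46.1 CPM to 65.1, 60.0, 74.5 and 73.2 CPM (log2 change 0.47, adjusted p 0.00197). In these 3 genes no KO library reached down to the highest WT library. Slc7a3, another carrier of basic amino acids, had the largest log2 change of the 4 lists, 2.37 ± 0.25 (adjusted p 0.000306), at a low level. It stood at 0.56, 0.57, 0.65 and 0.76 CPM in WT and at 4.64, 3.91, 2.86 and 2.74 CPM in KO, so KO libraries 5 and 6 were above 7 and 8.

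Of the 24 genes of cytosolic tRNA charging, 9 rose (37.5%, beside the 3.93% of all genes), by 0.18 to 0.46 on the log2 scale. Of 17 mitochondrial synthetases, 1 rose (5.88%, near the 3.93% of all genes), namely Tars2 (0.20, adjusted p 0.035). Tars2 was not called in 6 of the 8 fits that left out 1 library, up to an adjusted p of 0.105 without WT replicate 1. The difference between these lists was not tested. Aars, the alanine enzyme, stood at 132, 140, 139 and 138 CPM in WT and at 174, 170, 183 and 181 CPM in KO (log2 change 0.38 ± 0.04, adjusted p 0.000247). Cars, the cysteine enzyme, went from 32.2, 35.5, 35.4 and 31.8 CPM to 45.7, 46.5, 47.8 and 47.2 CPM (log2 change 0.46, adjusted p 0.000306). The KO values of both genes lay in a narrow band above all WT values. Sars, which charges the serine tRNAs that Thumpd1 serves, went from 71.5, 73.0, 68.3 and 71.1 CPM to 90.3, 91.0, 87.7 and 90.0 CPM (log2 change 0.33, adjusted p 0.000372). Mars, the methionine enzyme, rose by 0.35 (adjusted p 0.000464). Lars, which charges leucine tRNAs and is given here although the rule for named genes did not pick it, rose by 0.18 (adjusted p 0.0395, up to 0.123 without WT replicate 1). Aars, Cars and Mars each overlap a gene on the other strand.

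**Figure D2:**
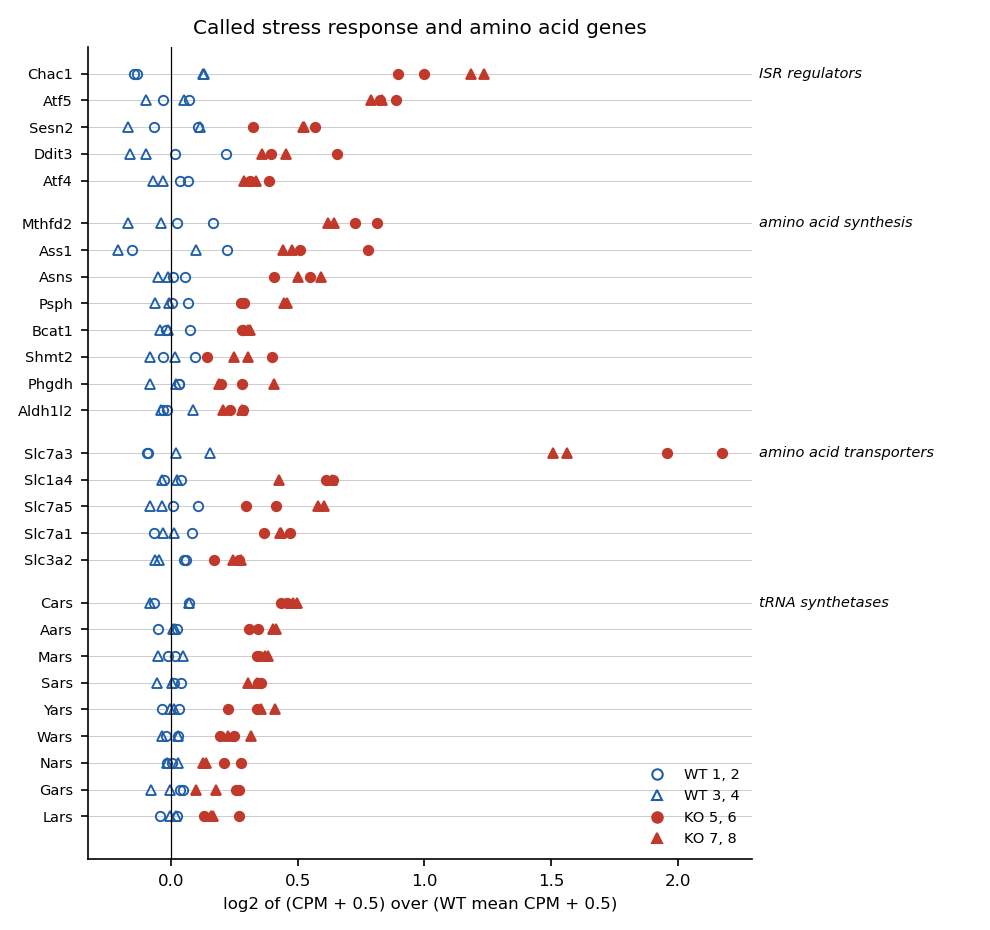
Rows are the 27 called genes of the 4 stress response and amino acid lists, and the x axis is the log2 ratio of each library's CPM to the WT mean after 0.5 had been added to both. Open symbols are WT and filled symbols KO, with circles for the first neighbouring pair of each genotype and triangles for the second. Filled symbols lie to the right of all open ones in every row, and apart from Slc7a3 (2.37) and Chac1 (1.19) their fitted log2 changes are under 1.

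Atf4 works as a dimer with C/EBP proteins on a composite site, whose letters can be written TGATGNAA. In RefSeq promoters of GRCm38.p6, which run from 250 bases before to 50 after each gene's start, these letters were searched on both strands. They occurred in 291 of the 11021 tested genes with a promoter (2.64%), and in 6 of the 20 called higher genes of the 4 lists that had one (30%). Of the 43 members with a promoter that were not called, 8 held them (18.6%), among them Trib3, Iars and Slc7a11. The palindrome TGACGTCA, the classical cAMP response element, was in 3.51% of all promoters and in 0 of those 20, and no run of 8 letters can match both motifs. A match describes the letters only, and both the lists and the motif come from knowledge of Atf4 targets. Windows of 30 bases around 6 matches, 1 for each of these called genes, are shown here so that the letters found in these 6 of the 20 genes can be read in place, each read 5′ to 3′ on the gene's strand with the matching letters in capitals.
Aars (chr8:111033840-111033869, plus strand): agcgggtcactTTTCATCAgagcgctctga
Asns (chr6:7693214-7693243, minus strand): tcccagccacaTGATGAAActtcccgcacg
Chac1 (chr2:119351038-119351067, plus strand): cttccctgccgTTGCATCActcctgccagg
Gars (chr6:55037960-55037989, plus strand): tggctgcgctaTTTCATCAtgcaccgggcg
Slc1a4 (chr11:20332699-20332728, minus strand): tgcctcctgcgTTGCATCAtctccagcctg
Yars (chr4:129189895-129189924, plus strand): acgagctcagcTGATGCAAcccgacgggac

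The matches shown began between 193 bases before the start (Chac1, at -193) and 9 bases after it (Aars, at 9). Asns and Yars held the letters on the gene's strand and the others on the opposite strand. Gars and Yars, the glycine and tyrosine enzymes, are named here for their matches, and they rose by 0.19 (adjusted p 0.0389, up to 0.117 without KO replicate 5) and 0.33 (adjusted p 0.00138).

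Ribosomal proteins of the cytosol also rose in part. Of 84 cytosolic ribosomal protein genes, 27 rose (32.1%, beside the 3.93% of all genes) and 0 fell. The called rises lay between 0.16 and 0.99 on the log2 scale, with a median of 0.22. Over the list, 80 of 84 changes were positive, with a median of 0.15. The top value was that of Rps12l1, outside the rule for named genes, at 1.08 to 2.69 CPM in WT. It was not called in 6 of the 8 fits that left out 1 library. Rpl8 stood at 89.8, 89.3, 82.4 and 83.5 CPM in WT and at 103, 104, 107 and 107 CPM in KO (log2 change 0.28, adjusted p 0.00178). Rps2 went from 84.8, 84.6, 74.7 and 71.4 CPM to 103, 94.6, 103 and 97.0 CPM (log2 change 0.33, adjusted p 0.00666). In both genes WT libraries 1 and 2 were above 3 and 4, and no WT library reached the KO range. Eef1a1, the elongation factor that delivers charged tRNA to the ribosome, rose by 0.30 ± 0.04 (adjusted p 0.00179). The count of 27 was 14 without WT replicate 1, KO replicate 5 or KO replicate 8, 12 without WT replicate 4 and 10 without WT replicate 3. When neighbouring pairs were summed, 0 ribosomal protein genes were called by limma-voom. Of 78 mitochondrial ribosomal protein genes, 0 were called by limma-voom, edgeR or DESeq2 (median 0.03), and 15 had an unadjusted p under 0.05.

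Of 62 genes of tRNA modification enzymes, 2 rose and 0 fell, a share of 3.23% beside the 3.93% of all genes. Cdk5rap1, which adds a methylthio group to mitochondrial tRNAs, stood at 4.03, 4.89, 4.08 and 3.82 CPM in WT and at 6.79, 6.18, 6.34 and 8.37 CPM in KO (log2 change 0.68, adjusted p 0.00869). Trmt61a, the catalytic subunit of a tRNA adenosine methyltransferase, rose by 0.47 (adjusted p 0.0117). All KO libraries of both genes were above all WT libraries. Of 22 factors of ribosome stalling and rescue, 2 rose (9.09%, beside the 3.93% of all genes). Rnf10, a ubiquitin ligase of stalled ribosomes, changed by 0.20 (adjusted p 0.00513). Rack1, a ribosome-bound scaffold, changed by 0.17 (adjusted p 0.0364, up to 0.11 without KO replicate 5).

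Lists of other protein quality programmes held no gene called higher by limma-voom. Of 18 chaperones of endoplasmic reticulum stress, 0 rose and 4 fell (22.2%, beside the 2.51% of all genes), with a list median of -0.11. That count was 1 with the GC correction, 1 without WT replicate 4 or KO replicate 5, 7 or 8, and 0 without WT replicate 1 or with neighbouring pairs summed. Dnajc3, which encodes a chaperone and inhibitor of eIF2 kinases, stood at 79.6, 71.7, 68.2 and 74.2 CPM in WT and at 62.6, 63.1, 62.1 and 64.5 CPM in KO (log2 change -0.23, adjusted p 0.0172). Hsp90b1 and Pdia3, abundant folding factors, changed by -0.20 (adjusted p 0.0208) and -0.15 (adjusted p 0.039). Dnajb9 changed by -0.44 (adjusted p 0.0396). Each of these 4 calls was lost when 1 library was left out, Dnajc3 without WT replicate 1 or KO replicate 5 (adjusted p 0.0531 and 0.0521), and the highest adjusted p was 0.131, for Pdia3 without WT replicate 1. Of 17 cytosolic heat shock chaperones, 35 proteasome subunits and 14 interferon-stimulated genes, 0 were called by limma-voom. Unadjusted p-values under 0.05 were held by 3, 10 and 0 of them, edgeR called 1, 1 and 0, and DESeq2 called 2, 0 and 0. Without KO replicate 6, limma-voom called 3 heat shock genes lower and 5 proteasome genes higher, and without WT replicate 2 it called 1 and 2 of them higher.

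Of the 13 protein-coding transcripts of the mitochondrial genome, 5 fell (38.5%, beside the 2.51% of all genes) and 0 rose, with a median of -0.38. The count of 5 was 9 without KO replicate 6 and 0 or 1 without any other library except WT replicate 2, and edgeR called 3 and DESeq2 2. mt-Nd1 stood at 1355, 1287, 1257 and 1472 CPM in WT and at 1048, 1277, 923 and 1069 CPM in KO (log2 change -0.30, adjusted p 0.0234). mt-Atp8 was at 62.8, 49.7, 52.4 and 78.9 CPM in WT and at 31.7, 57.7, 18.3 and 28.2 CPM in KO (log2 change -0.97, adjusted p 0.0316). KO library 6 lay inside the WT range for both genes, and none of the 13 transcripts separated the groups. The mitochondrial ribosomal RNA mt-Rnr2, which is not among the 13, stood at 114, 99.4, 97.4 and 119 CPM in WT and at 71.6, 91.2, 49.1 and 81.3 CPM in KO (log2 change -0.60, adjusted p 0.0255, up to 0.0793 without WT replicate 1). The rule that named mt-Rnr2 took only genes whose groups did not overlap. Neither call held in all fits that left out 1 library, with adjusted p up to 0.0773 for mt-Nd1 without WT replicate 4 and up to 0.0933 for mt-Atp8 without KO replicate 8. Of 80 nuclear genes of the respiratory chain, 5 rose (6.25%, near the 3.93% of all genes) and 1 fell (1.25%). The rises numbered 11 without KO replicate 6, 2 without WT replicate 1 and 3 without any other library except WT replicate 2. Ndufv1, a subunit of complex I, rose by 0.26 (adjusted p 0.00666).

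Genes typical of forebrain and midbrain neurons were among the large rises. Of 20 tested forebrain genes, 10 were higher (50%) and 1 lower, and of 22 tested midbrain and thalamic genes, 7 were higher (31.8%) and 1 lower, beside 3.93% higher and 2.51% lower of all genes. With neighbouring pairs summed, 3 and 2 were called higher. Their medians were 0.31 and 0.14. Nrgn, a calmodulin-binding protein of forebrain dendrites, stood at 1.82, 1.58, 2.61 and 2.14 CPM in WT and at 34.3, 28.5, 18.2 and 13.3 CPM in KO (log2 change 3.42 ± 0.43, adjusted p 0.000951). Enc1, an actin-binding protein of cortical neurons, went from 7.49, 7.72, 7.35 and 5.61 CPM to 28.7, 27.4, 20.1 and 20.1 CPM (log2 change 1.71, adjusted p 8.59e-05). In both genes KO libraries 5 and 6 were above 7 and 8, and all of them were above WT.

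Shox2, a transcription factor of thalamic and midbrain neurons, had 0, 0, 0.11 and 0.05 CPM in WT and 7.58, 4.34, 2.50 and 1.68 CPM in KO, all WT values being under the limit of 3 counts. Tcf7l2, the Wnt effector that marks thalamic neurons, went from 10.8, 11.7, 10.2 and 10 CPM to 35.7, 41.0, 22.8 and 20.4 CPM (log2 change 1.38, adjusted p 0.00259). Slc17a6, the vesicular glutamate transporter of subcortical neurons, went from 13.1, 12.1, 7.46 and 10 CPM to 32.1, 36.4, 18.1 and 20.1 CPM (log2 change 1.22, adjusted p 0.00873). All 3 were higher in KO libraries 5 and 6 than in 7 and 8. Shox2 shares exon positions with Rsrc1 on the other strand. Slc17a6 is also on the list of the cerebellar nuclei. Ndst4, a heparan sulphate enzyme, and Camk2a, the alpha subunit of a calcium-dependent kinase, rose by 2.08 (adjusted p 0.000951) and 0.46 (adjusted p 0.000327).

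The KO libraries stood in a different order for these genes than for the stress response genes, which is given as a description without a test. Over the 10 called higher forebrain genes, the level in KO libraries 5 and 6 over that in 7 and 8 had a median of 1.5, and over the 7 called higher midbrain genes it was 1.46. In 14 of these 17 genes both KO libraries 5 and 6 were above both 7 and 8. The same ratio had medians of 1.03, 0.99, 0.99 and 0.98 over the called genes of the ISR, amino acid synthesis, transporter and synthetase lists. Of those 27 genes, 6 were higher in both of libraries 5 and 6 and 8 in both of libraries 7 and 8. Over all 638 genes called higher, the median was close to 1, with 336 of them above 1.

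The summed level of the whole forebrain list lay between 610 and 647 CPM in WT and between 689 and 761 CPM in KO. That of the midbrain list lay between 1347 and 1383 CPM and between 1455 and 1490 CPM. Much of that rise, from a mean of 1364 CPM to 1466 CPM, lay in Calb2, which is also on the granule cell list. Calb2 went from a WT mean of 226 CPM to a KO mean of 313 CPM. Defining genes were not all raised. Neurod6 and Tbr1 of the cortex had adjusted p of 0.63 and 0.303, and En1 of the midbrain 0.147. A mean over the 42 tested genes of both lists separated the genotypes completely, at 3.44 to 3.51 log2 CPM in WT and 3.88 to 4.17 in KO. With it as a covariate 23 genes were called, and 0 of the 27 stress response and amino acid genes were among them. Their list medians were then 0.11, 0.21, 0.27 and 0.24. Genotype and the level of these markers cannot be told apart in 8 libraries.

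Some immediate early genes, which neurons switch on within minutes of activity, rose. Of 25 tested, 6 rose (24%, beside the 3.93% of all genes) and 0 fell, with a median of 0.17. The median was 0.26 with edgeR, 0.27 with DESeq2, 0.089 without KO replicate 5, 0.30 without KO replicate 7 and 0.31 without KO replicate 8. Egr3 stood at 0.35, 0.61, 0.44 and 0.46 CPM in WT and at 6.84, 7.46, 3.68 and 3.95 CPM in KO (log2 change 3.27 ± 0.35, adjusted p 0.000306). Fosb went from 0.91, 0.61, 0.33 and 0.56 CPM to 5.65, 5.93, 3.17 and 3.16 CPM (log2 change 2.70, adjusted p 0.000628). Egr1 went from 37.1, 36.7, 36.2 and 37.2 CPM to 59.1, 56.5, 46.8 and 48.3 CPM (log2 change 0.49, adjusted p 0.00188). KO libraries 5 and 6 were the highest in all 3, and in 5 of the 6 called genes both of them were above both 7 and 8. With the forebrain and midbrain markers as a covariate, the list median was -0.25. Then 6 members were called lower, among them Fos, Npas4 and Nr4a2. Nr4a2 and Arc are themselves among those markers. Genotype and the marker level cannot be told apart in 8 libraries, so no fall is read from this fit.

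Fos and Npas4, the textbook activity genes, were not called and are named here after their values were seen. Fos stood at 11.3, 11.5, 7.30 and 9.43 CPM in WT and at 31.6, 26.5, 5.21 and 5.11 CPM in KO (adjusted p 0.831). Npas4 was at 3.34, 3.44, 2.50 and 2.09 CPM in WT and at 8.93, 7.58, 1.69 and 2.16 CPM in KO (adjusted p 0.634). KO libraries 5 and 6 were above all WT libraries for both genes, while 7 and 8 were below all WT libraries for Fos and at the low end of the WT range or under it for Npas4.

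**Figure D3:**
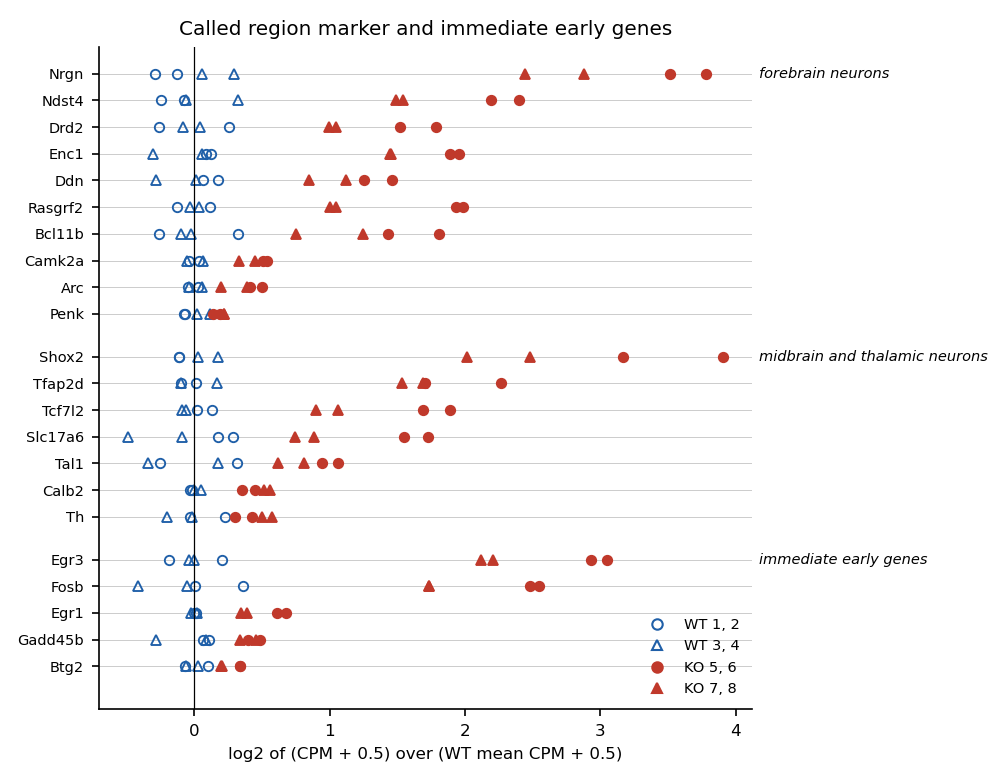
Rows are the called higher genes of the forebrain, midbrain and immediate early lists, and the x axis is the log2 ratio of each library's CPM to the WT mean after 0.5 had been added to both. Filled circles (KO libraries 5 and 6) lie to the right of filled triangles (KO libraries 7 and 8) in most rows, as for Nrgn with 34.3 and 28.5 against 18.2 and 13.3 CPM. WT libraries (open symbols) scatter around 0.

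Receptors, channels and peptides of neurons changed in both directions. Of 25 glutamate receptor genes 4 rose (16%), and of 61 potassium channel genes 9 rose (14.8%) and 1 fell (1.64%). Of 9 tested neuropeptide genes 5 rose (55.6%). Over all genes tested, 3.93% were called higher and 2.51% lower. The potassium channel rises numbered 5 without WT replicate 1 and 15 without KO replicate 6, and the neuropeptide rises 3 without WT replicate 1 or 4 or KO replicate 5 or 8. Of 22 calcium channel genes 2 rose (9.09%) and 3 fell (13.6%). Among them were Cacna1h, a T-type channel (1.04, adjusted p 0.00138), and Cacnb4, an auxiliary subunit (-0.26, adjusted p 0.0107). The calcium channel rises numbered 6 without KO replicate 6 and 1 without WT replicate 1, 3 or 4 or KO replicate 5 or 7, and the falls 1 without WT replicate 1, 2 or 3 or KO replicate 8. Of 18 subunits of GABA and glycine receptors 2 rose (11.1%) and 1 fell (5.56%). There were 0 rises without WT replicate 1 or 3 or KO replicate 5, 1 without WT replicate 4 or KO replicate 8, and 6 with the GC correction. The fall became 2 without WT replicate 2 or KO replicate 6. Grm5, a metabotropic glutamate receptor, stood at 10.7, 10.9, 10.8 and 11.5 CPM in WT and at 31.3, 34.7, 21.4 and 20.8 CPM in KO (log2 change 1.23, adjusted p 0.00105). Kcnc2, a fast potassium channel, went from 4.64, 5.10, 3.92 and 4.03 CPM to 15.9, 15.6, 7.66 and 8.74 CPM (log2 change 1.30, adjusted p 0.00822). Sst, somatostatin, went from 0.87, 0.97, 0.54 and 0.51 CPM to 4.13, 4.16, 2.15 and 2.47 CPM (log2 change 1.94, adjusted p 0.00184). All 3 again had their highest values in KO libraries 5 and 6.

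Vgf, Necab3, Ndn and Ifi203 were on no list and were among the genes with the lowest p-values. Vgf, a secreted precursor of neuronal peptides, stood at 13.4, 13.8, 12.0 and 12.2 CPM in WT and at 37.7, 35.0, 33.4 and 29.8 CPM in KO (log2 change 1.37 ± 0.08, adjusted p 3.25e-06). Necab3, a calcium-binding protein, went from 11.3, 11.4, 10.6 and 11 CPM to 23.4, 21.5, 23.7 and 22.7 CPM (log2 change 1.02 ± 0.06, adjusted p 3.29e-06). Ndn, necdin, went from 82.6, 86.6, 85.1 and 86.9 CPM to 109, 107, 115 and 110 CPM (log2 change 0.37, adjusted p 0.000306). These 3 genes, with Atf5, Calb2, Enc1, Aars, Asns and Ifi203, had the lowest p-values after Thumpd1. Ifi203, an interferon-inducible gene, went from 3.90, 3.60, 4.51 and 4.54 CPM to 9.04, 11.1, 12.6 and 13.1 CPM (log2 change 1.45, adjusted p 0.000306), and the overlapping gene Mndal on the same strand, with which it may share reads, also rose (1.47, adjusted p 0.00138).

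Markers of granule cells changed in both directions. Of 16 granule cell genes, 4 fell (25%, beside the 2.51% of all genes) and 1 rose, while 10 of the 16 changes were positive and the median was 0.01. The summed level of the list lay between 9646 and 10040 CPM in WT and between 9167 and 9889 CPM in KO. In bulk samples, fewer cells of a type and less RNA per cell cannot be told apart. Zic1, a transcription factor of granule cells, stood at 991, 983, 953 and 952 CPM in WT and at 812, 825, 833 and 839 CPM in KO (log2 change -0.21, adjusted p 0.00138). Gabra6, the granule cell subunit of the GABA-A receptor, went from 454, 437, 442 and 466 CPM to 358, 387, 354 and 406 CPM (log2 change -0.26, adjusted p 0.00556). Neurod1 fell by 0.22 on the log2 scale (adjusted p 0.00658). In these 3 genes all KO libraries were below all WT libraries. Calb2, calretinin, which granule cells share with thalamic neurons, moved the other way, from 221, 223, 234 and 225 CPM to 309, 289, 333 and 323 CPM (log2 change 0.48, adjusted p 8.59e-05).

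Of 18 Purkinje cell genes, 2 rose (11.1%, beside the 3.93% of all genes) and 0 fell. Pcp2 and Slc1a6, both Purkinje proteins, changed by 0.24 (adjusted p 0.0355) and 0.18 (adjusted p 0.0393), and were not called in 6 fits each that left out 1 library, up to adjusted p of 0.107 and 0.121 without WT replicate 1. The summed Purkinje list lay between 9019 and 9462 CPM in WT and between 9343 and 9676 CPM in KO. Of 14 genes of molecular layer and Golgi interneurons, 1 rose (7.14%) and 1 fell (7.14%), beside 3.93% higher and 2.51% lower of all genes. The interneuron rise was Sst, counted above with the neuropeptides. Of 4 unipolar brush cell genes, 1 fell (25%). That call was lost in 6 of the 8 fits that left out 1 library, and edgeR and DESeq2 called 0 on that list. Of 8 genes of the cerebellar nuclei, 4 rose (50%, beside the 3.93% of all genes), led by Lhx9 (2.54, adjusted p 0.00184) and Meis2 (1.58, adjusted p 0.00203). Slc17a6, given above with the midbrain genes, is also among these 4. Lhx9 stood at 0.91, 0.65, 0.93 and 0.66 CPM in WT and at 6.5, 7.70, 3.01 and 3.63 CPM in KO, in the same library order as the midbrain genes.

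Glial, vascular and lining cell lists held calls in both directions. Of 15 astrocyte genes 4 rose (26.7%, beside the 3.93% of all genes), 2 without WT replicate 1 and 1 without WT replicate 3 or 4 or KO replicate 5 or 8, among them A2m (0.30, adjusted p 0.00226) and Gfap (0.23, adjusted p 0.0177, up to 0.0619 without WT replicate 3). Of 17 endothelial and pericyte genes 2 rose (11.8%), and of 12 meningeal and fibroblast genes 3 rose (25%) and 1 fell (8.33%). Vtn, vitronectin, is on both lists (0.35, adjusted p 0.00203). Of 16 oligodendrocyte genes 2 rose, and the summed list was at 3481 and 3540 CPM in WT libraries 1 and 2, at 3009 and 2987 CPM in 3 and 4 and between 3436 and 3655 CPM in KO. Of 15 microglial genes 0 were called by limma-voom, edgeR or DESeq2, 4 had an unadjusted p under 0.05, and 14 changes were positive (median 0.14). Of 15 choroid plexus genes 0 were called by any of these tools and 0 had an unadjusted p under 0.05, with a median of -0.59 and sums of 2469, 2481, 669 and 661 CPM in WT and 651, 693, 1226 and 1245 CPM in KO. Ependymal genes, which line the ventricles, fell in 3 of 14 cases (21.4%, beside the 2.51% of all genes) and rose in 1. Dnah2, a dynein of cilia, was at 3.08, 2.95, 2.50 and 2.35 CPM in WT and at 2.09, 1.83, 1.38 and 1.42 CPM in KO (log2 change -0.77, adjusted p 0.0193), and was not called without WT replicate 1 or KO replicate 7 or 8 (adjusted p 0.0606 to 0.0639).

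**Figure D4:**
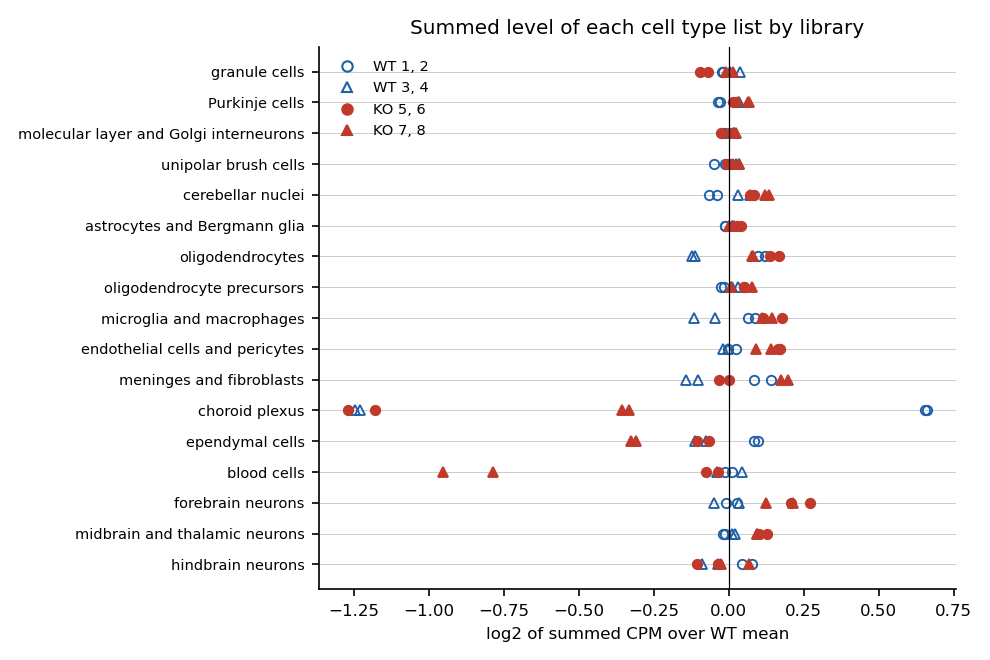
Each row is 1 cell type list and each symbol 1 library, placed on the x axis by the log2 ratio of the list's summed CPM to the WT mean. The choroid plexus row spreads by pairs of libraries within each genotype, from 651 to 2481 CPM. In the forebrain, midbrain, endothelial and microglial rows all filled KO symbols lie to the right of the open WT symbols. Much of the midbrain difference lies in Calb2, which is also on the granule cell list.

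On the clock and cholesterol lists the calls were falls. Of 18 clock genes 4 fell (22.2%, beside the 2.51% of all genes), but 2 without WT replicate 1, 2 or 3 or KO replicate 7 or 8 and 0 with neighbouring pairs summed. Nr1d2, a repressor of the clock, stood at 197, 188, 182 and 192 CPM in WT and at 157, 169, 141 and 152 CPM in KO (log2 change -0.29, adjusted p 0.00578). Nr1d1, its close relative, fell by 0.30 on the log2 scale (adjusted p 0.0096). Of 23 genes of cholesterol synthesis 2 fell (8.7%), but 1 without WT replicate 1, 2 or 3 or KO replicate 5, 7 or 8. Stard4, a sterol carrier, fell from 44.4, 42.6, 45.6 and 44.6 CPM to 31.5, 34.8, 30.2 and 31.3 CPM (log2 change -0.49, adjusted p 0.000306). Vipr2, a receptor for vasoactive intestinal peptide, was on no list and fell from 13.6, 14.4, 14.9 and 13.8 CPM to 8.31, 9.36, 10.5 and 9.32 CPM (log2 change -0.61, adjusted p 0.00138). No KO library of Stard4 reached the WT range, and Vipr2 was named by a rule that took only genes whose groups did not overlap.

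Y-linked and strain-variable genes were listed to check the animals. All 8 libraries held Y-linked transcripts and Xist stayed between 0.04 and 0.28 CPM. Eif2s3y, the Y-linked copy of an eIF2 subunit, stood at 51.2, 50.3, 45.6 and 49.3 CPM in WT and at 20.6, 21.7, 30.2 and 37.5 CPM in KO (log2 change -0.88 ± 0.14, adjusted p 0.0028). Its X-linked counterpart Eif2s3x rose by 0.17 (adjusted p 0.0146, up to 0.0531 without WT replicate 1). Of the other Y-linked genes, Ddx3y changed by -0.31 (adjusted p 0.0176, up to 0.0631 without WT replicate 1), and Kdm5d and Uty by -0.22 (adjusted p 0.0572) and -0.21 (adjusted p 0.133). Of 5 tested genes known to differ between C57BL/6 substrains, 1 was called lower (20%, beside the 2.51% of all genes). It was Cyfip2 at -0.11 (adjusted p 0.0316, up to 0.0904 without KO replicate 8), with 679 to 692 CPM in WT and 619 to 624 CPM in KO.

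**Figure D5:**
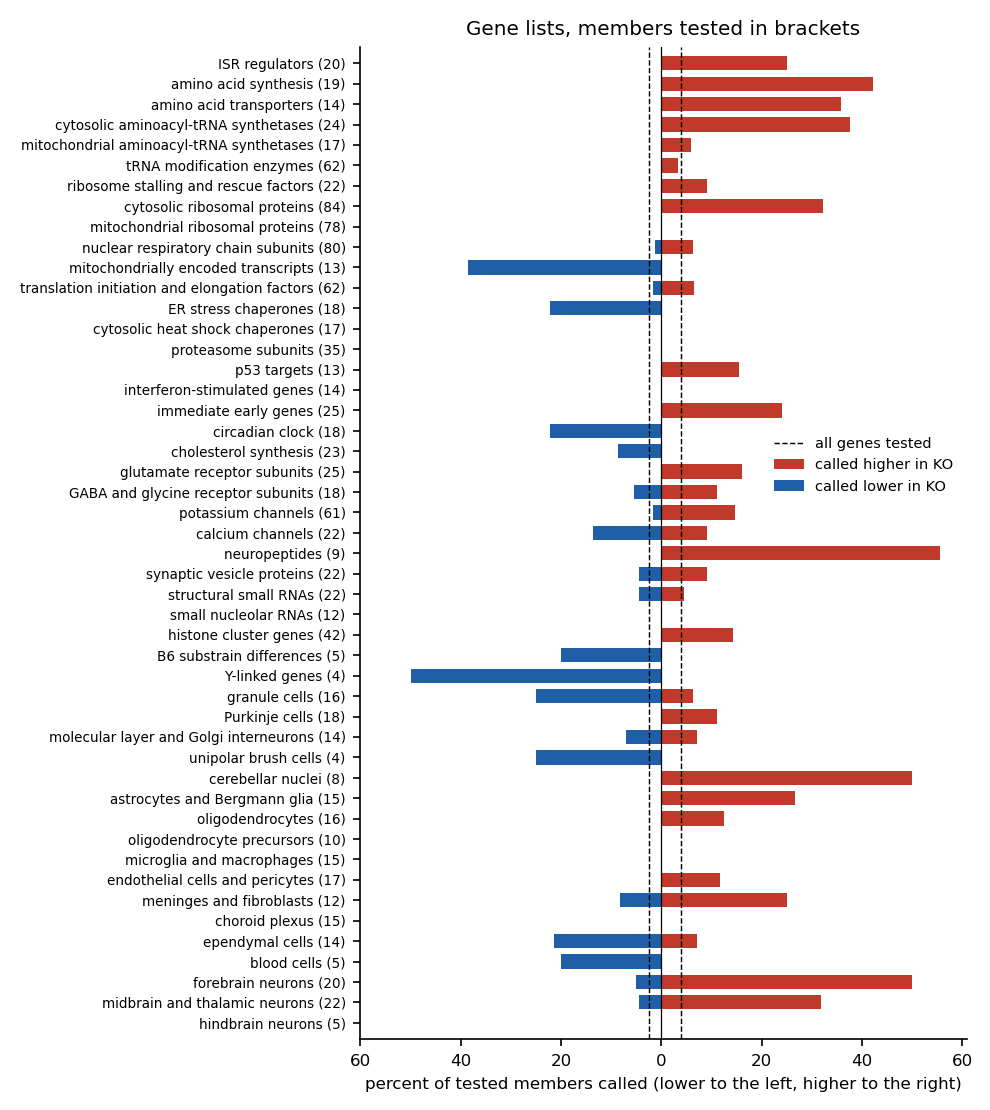
Bars give the percent of each list's tested members that were called higher (right) or lower (left) in KO, with the number tested in brackets, and dashed lines mark 3.93% and 2.51% for all genes tested. Several short lists have long bars on few genes, such as the Y-linked list with 2 of 4 members called lower.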

How the data were processed

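Per the labels, total RNA was depleted of ribosomal RNA, made into stranded libraries and read as paired ends on an Illumina instrument. The authors aligned reads to mm10 with STAR and made expected counts per gene with RSEM and GENCODE M21, and tool versions are not given in the sources used here. The deposited table holds these expected counts for 55450 genes and 24 libraries without normalization, and 12.3% to 12.9% of a cerebellum library's nonzero values are not whole numbers.

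CPM were computed from library totals. The 8 cerebellum libraries were grouped by their labels and fitted with limma 3.58.1 (voom with quantile normalization, moderated statistic, two-sided) in R 4.3.3, with Benjamini-Hochberg adjustment over all 16225 genes and a threshold of 0.05. The CPM limit of 1 is the study's, while the minimum of 4 libraries was set here to the size of a group. Alternatives were edgeR 4.0.16 (quasi-likelihood), DESeq2 1.42.0 (both on rounded counts), TMM scaling, other filters, sample quality weights, a covariate of forebrain and midbrain markers and each library left out. A covariate of Ttr, summed neighbouring libraries and a correction for transcript GC content were chosen after seeing the data. The fits were tested on simulated data.

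Members and gene lists were chosen with earlier results of these data known. The rule for named genes took Thumpd1, Nat10, Eif2ak4, Atf4, Ddit3 and Asns. It added the 10 largest rises and 10 largest falls of called genes whose groups did not overlap and whose average reached 1 log2 CPM, and the 10 lowest p-values, without predicted genes, Rik clones and pseudogenes. It also took up to 4 called members of each list, the 2 highest members of cell type lists with under 2 calls, and called neighbours of Thumpd1. A few of the genes and 1 promoter window are not reported here. A count was taken as moved when it changed by more than 1.5 times. Promoters came from RefSeq (GRCm38.p6) and gene positions from GENCODE M21. Shares of leucine and serine were computed from GENCODE coding sequences for 13269 genes in place of a protein table, which was not used here.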

Additional observations from a re-analysis of the deposited data

Results flagged for a closer look

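In 11 of 290 groups of 4 libraries, each a named gene in 1 genotype, a single library stood apart from the other 3 by more than Dixon's 95% limit. Chance flags about 1 in 20 groups, and these are 3.79%. In WT, library 4 stood apart for Thumpd1 with 24.0 CPM. Library 2 stood apart for Kcnh5 with 2.35 CPM, for Sspo with 4.53 CPM, for Vtn with 46.3 CPM and for Rnu1b2 with 2.34 CPM. Library 1 was apart for Alas2 with 3.99 CPM and library 3 for Hist2h2aa2 with 19.9 CPM. In KO, library 8 was apart for Slc1a4 with 26.1 CPM and library 7 for Grik1 with 29.2 CPM. Library 6 was apart for Trmt61a with 8.13 CPM and for Cnp with 204 CPM.

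Rnu1b2, a copy of the U1 spliceosomal RNA, was the extreme case. The other WT libraries held at most 0.00043 CPM, and the KO libraries held 5.14, 4.43, 4.11 and 3.64 CPM. Reads of near-identical U1 copies are split by estimation in expected counts, so its call as higher in KO (adjusted p 0.00279) is uncertain, and DESeq2 gave an adjusted p of 0.446.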

How the results depend on the processing

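No paired analysis was possible because WT libraries are numbered 1 to 4 and KO libraries 5 to 8 and share no number. The 1045 calls (638 higher, 407 lower) became 628 (420 and 208) with no filter, 1757 (960 and 797) with sample quality weights, 1688 (960 and 728) with a Ttr covariate, 48 (39 and 9) with neighbouring libraries summed and 23 (10 and 13) with the forebrain and midbrain marker covariate. DESeq2 called 633 genes lower. Leaving out 1 library gave 398 to 2321 calls, of which 289 to 1217 were higher and 109 to 1104 lower, the extremes being without WT replicate 1 and without KO replicate 6. The cause was not tested. Of the 132 called genes named by rule, 27 were still called with libraries summed and 5 with the marker covariate, while none changed direction except under that covariate, and Thumpd1 was called under every alternative that tested it, since the filter of 1 CPM in all 8 libraries removes it. In all, 295 genes (219 higher, 76 lower) were called in every fit other than these 2.

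Under the marker covariate, which 8 libraries cannot separate from genotype, these log2 changes turned: Kcnh5 -0.024, Baiap3 -1.27, Slit1 -1.14, Meis2 -0.26, Btg2 -0.047, Egr1 -0.11, Arc -0.077, Grm5 -0.12, Gabra5 -0.76, Kcnc2 -0.76, Cacnb1 -0.056, Slc17a6 -0.61, Tcf7l2 -0.49, Eif2s3y 0.66, Lum 0.35, Ttr 5.16, Slc6a5 0.0057 and Pax2 0.34. Among uncalled genes reported here, the sign also changed for Eif2ak4 (-0.0014) and Ttr (0.070, from -0.58) with the Ttr covariate, and with the GC correction it changed for Eif2ak4 (-0.016), Plcb1 (0.018) and Vcan (0.0094). Leaving out 1 library gave -0.026 to 0.034 for Eif2ak4, -2.10 to 1.07 for Ttr, -0.35 to 0.030 for Ptprc and -0.13 to 0.0069 for Pax2.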

Other observations

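Transcripts rich in G and C tended to be higher in KO. Across 13269 genes with a coding sequence, the log2 change correlated with transcript GC content at a Spearman rho of 0.39, with the share of TTA leucine codons at -0.31 and with that of CTA codons at -0.10. The shares of leucine and serine, the amino acids whose tRNAs Thumpd1 serves, gave 0.01 and -0.06. Genes are not independent replicates and share the same libraries. Median GC content was 53.3% over genes called higher, 44.5% over genes called lower and 50.7% over all. Within libraries, the deviation from the mean of all 8 correlated with GC content at -0.29, 0.12, -0.27 and -0.48 in WT and at 0.37, -0.34, 0.55 and 0.19 in KO, so KO library 6 stood with the WT libraries and WT library 2 with the others. With a correction for GC content 1175 genes were called, 794 of them shared with the 1045.

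Several other lists moved in part. Of 42 histone cluster genes 6 were called higher (14.3%, beside the 3.93% of all genes) and 0 lower, with a median log2 change of 0.15. The count of 6 was 0 without WT replicate 1, 2 without WT replicate 4 or KO replicate 8 and 3 without WT replicate 3 or KO replicate 5 or 7. Such transcripts mostly lack a poly(A) tail, and total RNA libraries hold them. Hist2h3b stood at 13.5, 14.5, 13.9 and 15.6 CPM in WT and at 17.8, 17.6, 20.3 and 19.2 CPM in KO (adjusted p 0.0132, up to 0.0535 without WT replicate 1). Rnu2-10, a U2 spliceosomal RNA, fell from 40.2, 42.7, 41.5 and 31.7 CPM to 26.0, 19.9, 13.7 and 8.07 CPM (log2 change -1.37, adjusted p 0.00529), and copies of U2 may share its reads. Blood cell genes summed to 12.8 to 13.6 CPM in WT, to 12.5 and 12.8 CPM in KO libraries 5 and 6 and to 6.80 and 7.63 CPM in KO libraries 7 and 8.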
